A study of Mus musculus with 8 samples.

Results

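Non-polyp colon was compared between 1 DCIR knockout mouse library and 1 wild-type library, both from BALB/cA mice at day 112 of a protocol that combines azoxymethane, a carcinogen, with dextran sulfate sodium (DSS), a detergent-like polymer that injures the colon epithelium. The pair was chosen by sample title and makes up 2 of the 8 libraries of the series. The other 6 are knockout and wild type at steady state, on day 12 of DSS, and polyps at day 112, with 1 library per group. RNA came from flash-frozen colon or polyp. The labels do not say how many animals a library holds, how the non-polyp pieces were separated from polyps, or where along the colon they were cut. With 1 library a side no difference below has a replicate check and none was tested. Fold changes are differences of log2(TPM + 1), where TPM is the deposited level per gene length scaled to the library, and a gene counts as higher or lower from a 2-fold difference.

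DCIR, encoded by Clec4a2, is a C-type lectin receptor on myeloid cells that carries an inhibitory motif, and the series concerns its loss in colitis and colorectal tumours together with GM-CSF and STAT5, a myeloid growth factor and the transcription factor that acts downstream of its receptor. In the azoxymethane and DSS protocol, mutation of the WNT pathway in crypt cells gives polyps whose cells express WNT target genes, while the surrounding mucosa keeps mature absorptive, goblet and endocrine cells. A full-thickness piece of colon also holds the muscle wall with its neurons and fat, and the bowel carries a lasting Hox code of position from its proximal to its distal end. Tumour cells, muscle wall and position can therefore each move many genes between pieces of colon, and genes of all of them are counted here as separate classes.

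Clec4a2 stood at 2.74 TPM in the wild-type library and was listed at 0 in the knockout library, so the genotype labels of the pair held for the targeted gene. All 4 libraries of day 112 carried Xist and no Y-linked transcripts, whereas the steady-state and DSS libraries carried Y-linked transcripts, so the pair itself does not mix sexes but its comparison with those stages does. Accessory sex gland transcripts were abundant in the steady-state and DSS libraries, as for probasin, Pbsn, at 1652 to 3943 TPM, and Pbsn was listed at 0 in all 4 libraries of day 112. These earlier libraries serve below to define classes and ranges, and the part of the gland transcripts in those results was not tested. At steady state the wild-type and knockout libraries read 2.96 and 0.659 TPM of Clec4a2, and the label of that knockout library is in doubt. Aligned sequence came to 2.84 gigabases in the wild-type and 3.03 in the knockout library, within the series' range of 2.70 to 3.35. In 10 genes, Csf2, Cxcl1, Cxcl2, Cxcl3, Cxcl5, Il17a, Il17f, Stat5a, Stat5b and Tnf, the deposited TPM left the fixed ratio to FPKM of at least 1 library, and these were kept out of every count.

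The tissue label of the knockout library did not hold against the rest of the series. Of 16863 genes kept, 484 differed at least 2-fold between it and the knockout polyp library and 1082 between it and the wild-type polyp library. Against its own partner, the wild-type non-polyp library, 4153 genes differed, which is 24.6% of all genes kept, and against the steady-state and DSS libraries 3708 to 4502 did. The wild-type library was nearest to wild-type DSS with 1773 genes apart and to wild-type steady state with 2090, and stood 3194 and 4344 genes from the wild-type and knockout polyps. For scale, the genotypes differed in 804 genes (4.77%) at steady state, 785 (4.66%) after DSS and 998 (5.92%) in polyps. The piece labelled knockout non-polyp thus had the profile of the polyp libraries, and how much tumour tissue it holds was not tested. In what follows, the knockout library and the wild-type library are the libraries so labelled.

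**Figure D1:**
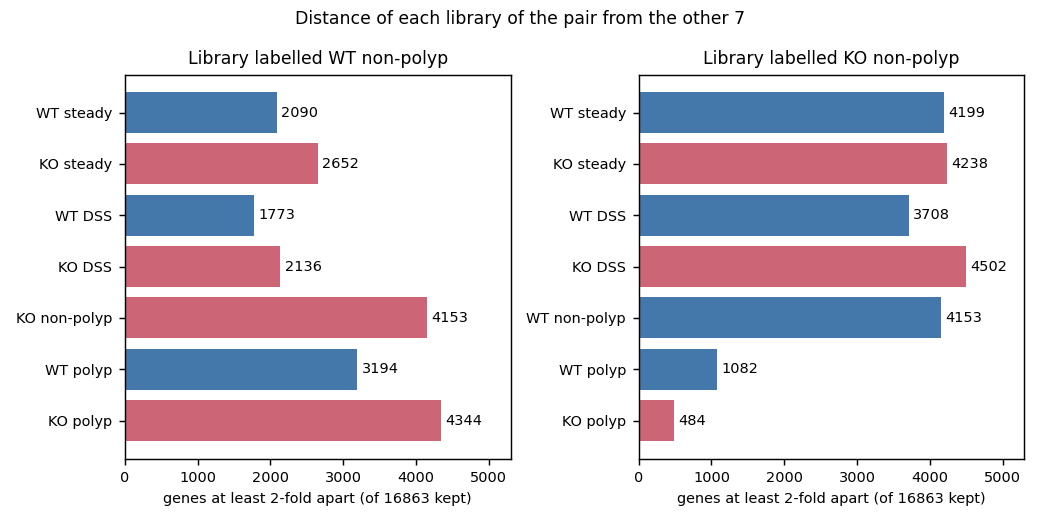
Number of genes at least 2-fold apart (horizontal axis, of 16863 kept) between each library of the non-polyp pair and each of the other 7 libraries (vertical axis); blue bars are wild-type and red bars knockout libraries. The library labelled knockout non-polyp lies 484 and 1082 genes from the knockout and wild-type polyps and at least 3708 from every other library, whereas the wild-type non-polyp library lies nearest to wild-type DSS at 1773.

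Of the genes kept, 2476 (14.7%) were at least 2-fold higher and 1677 (9.94%) at least 2-fold lower in the knockout library. The median gene was 0.21 higher on the log2 scale. The balance of the counts depends on that shift, since rescaling the libraries to a median near 0 gave 1779 higher and 2159 lower, and FPKM gave 1696 and 1597. The 835 genes at least 2-fold higher in each polyp library than in each steady-state library held 662 of the higher genes, which is 79.3% of the class, with a median difference of 2.04. Of the 1484 genes lower in polyps by the same rule, 807 (54.4%) were lower in the knockout library, and 16 of the 835 and 45 of the 1484 differed the other way. Of 2162 genes of the muscle-layer class, from marker lists or a correlation of at least 0.9 with smooth muscle genes over the 6 libraries outside the pair, 931 (43.1%) were lower and 26 higher. The correlation also took in epithelial genes that are low in polyps, such as Sult1a1 and Cyp2c55. With the marker lists alone, 52 muscle genes were lower. The muscle and polyp-low classes share 1176 genes, so tumour and muscle content cannot be told apart for these. The 44 position genes had 11 higher and 13 lower. Outside all of these classes 13534 genes remained, with 1756 (12.97%) higher and 611 (4.51%) lower, or 1061 and 952 after rescaling. Before rescaling these remaining genes held 70.9% of all higher genes and 36.4% of all lower genes. The 835 genes higher in polyps held 26.7% of all higher genes, so most higher genes lay outside that class.

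**Figure D2:**
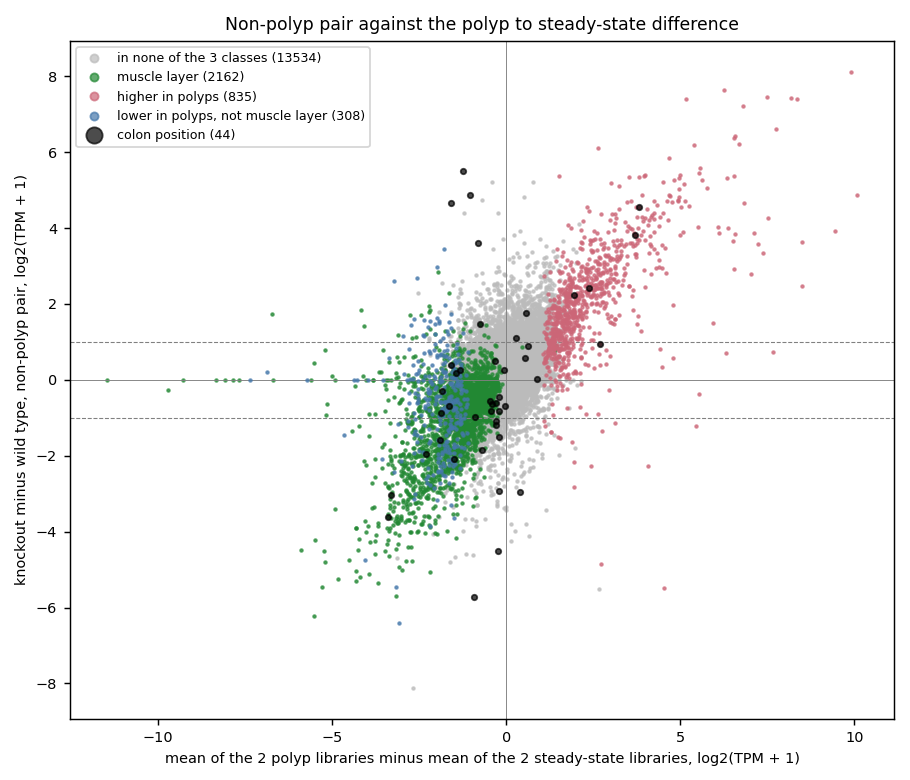
Each point is 1 of the 16863 genes kept. The horizontal axis is the mean of the polyp libraries minus the mean of the steady-state libraries and the vertical axis the knockout minus wild-type difference of the non-polyp pair, both in log2(TPM + 1), and the dashed lines mark 2-fold. The 835 genes higher in polyps lie mostly above the upper line (662). Of the 2162 genes of the muscle-layer class, which includes some epithelial genes low in polyps, 931 lie below the lower line. The 4 posterior Hoxd genes and Fabp2 stand off the diagonal.

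Genes of the WNT tumour programme were high in the knockout library. Of 14 WNT feedback antagonists and effectors, 13 were at least 2-fold higher, with a median difference of 3.44 beside 0.21 for all genes. Wif1, a secreted WNT antagonist, stood at 2.79 TPM in the wild-type and 566 in the knockout library, against 626 and 503 in the polyps and 2.09 to 6.97 over the steady-state and DSS libraries. Notum, which strips the lipid from WNT proteins, stood at 2.41 and 331 TPM, with 317 and 249 in the polyps. Apcdd1, an inhibitor at the receptor, read 3.89 and 186, and the transcription factor Sp5 0.458 and 50.7. For each of these 4 genes the wild-type library lay below 4 TPM and the knockout library at the level of the polyps, and the log2 difference for Wif1 was 7.22. Nkd2, another intracellular antagonist, was the exception at 9.70 TPM for wild type against 0.528 for knockout.

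Of 15 crypt stem cell genes kept, 10 were higher and 1 lower. Lgr5, the receptor for R-spondin that marks crypt base stem cells, stood at 0.0975 TPM in the wild-type and 15.2 in the knockout library, with 12.7 and 15.8 in the polyps. Smoc2, a secreted matrix protein of the stem cell signature, read 17.9 and 139, and Lrig1, a stem cell marker that restrains EGF receptors, was lower at 47.3 and 19.4. Among 15 genes of fetal-like and wound repair epithelium 12 were higher and none lower. Tnfrsf11b, the decoy receptor osteoprotegerin, stood at 6.24 and 188 TPM, and the claudin Cldn4 at 59.9 and 782. The stem and fetal-like genes thus lay at polyp levels together in the knockout library. Of 20 cell cycle genes, 7 were higher, 4 of the largest being the replication genes Mcm2 (12.4 and 37.2 TPM), Mcm3, Mcm4 and Rrm2, with a median of 0.96.

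Of 10 genes for ligands and receptors of the EGF family 5 were higher and none lower, and all 5 encode ligands. Ereg stood at 13.5 TPM for wild type against 132 for knockout, Nrg1 at 1.38 and 15.5, and Hbegf at 19.5 and 67.8. Egf itself read 1.24 and 0.203 TPM, and the receptor genes Erbb2 and Erbb3 lay within 2-fold. In the prostaglandin pathway the synthase and the degrading enzyme went in opposite directions. Ptgs2, the inducible cyclooxygenase, read 6.43 and 85.6 TPM, and Hpgd, which inactivates prostaglandins, 174 and 19.7. The prostacyclin synthase Ptgis and the receptor Ptger3 were lower, at 12.0 and 0.751 and at 5.59 and 0.250. Of 13 genes in that list, 4 were higher and 4 lower.

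Zinc-handling genes held the largest named differences of the pair. Mt4, a metallothionein otherwise known from stratified epithelia, stood at 4.85 TPM in the wild-type and 1632 in the knockout library, against 2091 and 1425 in the polyps and 0.544 to 1.11 at steady state and after DSS. Slc30a2, a zinc exporter, read 0.841 and 363 TPM, and the metallothionein Mt3 51.6 and 752. Each of these was far above the wild-type library and level with the polyps. The zinc importer Slc39a10 was also higher, at 1.63 and 12.3. The common metallothioneins read 518 and 428 TPM for Mt1 and 346 and 688 for Mt2, and the exporter Slc30a1 was lower at 21.6 and 9.22. Of the 10 genes in the list 4 were higher and 1 lower. The other genes with the largest gains were Stra6, the receptor for retinol-binding protein, at 0.0902 and 183 TPM, the proteoglycan Spock2 at 9.99 and 911, and the lipase-related Pnliprp1 at 4.19 and 872 and Pnliprp2 at 2.55 and 304.

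Of 13 genes for matrix metalloproteinases, which cleave extracellular matrix, a related protease and their inhibitors, 9 were higher and none lower. Mmp10 stood at 4.40 TPM for wild type against 215 for knockout, and Mmp13, a collagenase, at 2.96 and 76.6. The neutrophil gelatinase Mmp9 read 1.94 and 34.7, and the epithelial Mmp7 8.77 and 400.0. Mmp7 differs from the others in that its wild-type level was also below the other stages, which held 124 to 274 TPM. The inhibitor Timp1 was higher as well at 8.14 and 53.3, while Timp2 and Timp3 lay within 2-fold.

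The promoters of the leading zinc and metalloproteinase genes are printed because these genes are among the furthest apart of their lists and because each list has a known DNA element. They come from RefSeq on build GRCm38.p6, run from 250 bases before to 50 bases after the start, and are written 5′ to 3′ on the gene's strand with the matches in capitals. In Mt4 and Slc30a2 the capitals mark the core of the metal response element, searched as TGCACNC and TGCGCNC on both strands. In Mmp10 and Mmp13 they mark the AP-1 element, searched as TGACTCA and TGAGTCA, which are reverse complements of each other. The regions are chr8:94136954-94137253 and chr4:134343216-134343515 for the zinc genes, and chr9:7502092-7502391 and chr9:7272264-7272563 for the metalloproteinases, all on the plus strand.
Mt4: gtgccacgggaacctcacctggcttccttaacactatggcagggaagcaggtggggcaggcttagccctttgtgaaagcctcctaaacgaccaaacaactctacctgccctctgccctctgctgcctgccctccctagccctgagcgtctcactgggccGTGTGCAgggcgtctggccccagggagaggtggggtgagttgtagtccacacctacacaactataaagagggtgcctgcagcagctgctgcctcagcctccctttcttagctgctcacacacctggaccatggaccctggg
Slc30a2: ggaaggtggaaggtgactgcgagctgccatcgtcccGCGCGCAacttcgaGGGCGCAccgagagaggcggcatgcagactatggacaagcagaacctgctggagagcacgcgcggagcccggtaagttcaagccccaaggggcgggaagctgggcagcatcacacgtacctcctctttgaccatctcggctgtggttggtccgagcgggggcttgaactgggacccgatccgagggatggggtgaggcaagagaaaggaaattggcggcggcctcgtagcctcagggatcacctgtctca
Mmp10: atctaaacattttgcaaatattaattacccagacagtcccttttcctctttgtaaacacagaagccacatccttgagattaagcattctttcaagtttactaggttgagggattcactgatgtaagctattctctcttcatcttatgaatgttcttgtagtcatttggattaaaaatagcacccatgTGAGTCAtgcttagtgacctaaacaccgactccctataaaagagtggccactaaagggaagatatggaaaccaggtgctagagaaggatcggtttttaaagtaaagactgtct
Mmp13: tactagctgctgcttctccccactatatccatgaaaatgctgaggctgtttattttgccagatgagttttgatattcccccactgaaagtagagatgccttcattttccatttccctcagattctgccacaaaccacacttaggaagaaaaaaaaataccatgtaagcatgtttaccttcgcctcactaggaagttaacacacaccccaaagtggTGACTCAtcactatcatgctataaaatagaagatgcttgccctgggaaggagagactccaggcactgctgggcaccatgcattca
Mt4 held 1 match and Slc30a2 held 2. The metal response core was in 25.7% of all 32851 promoters in the table and in those of 7 of the 8 zinc list genes that matched, out of 10. Mt1 and Mt2, which were within 2-fold, held 3 and 4 matches. The AP-1 element was in 5.20% of all promoters and in those of 5 of the 11 metalloproteinase list genes that matched, out of 14, with 1 match each in Mmp10 and Mmp13. A TCF/LEF core, searched as CTTTGA on both strands, was in 16.0% of all promoters and in those of 3 of the 10 WNT list genes that matched, out of 14. The CArG box was in 1.63% of all and in 1 of the 15 smooth muscle genes that matched, out of 20. These list figures count a gene when any of its promoters matched, whereas the percentages count promoters. Counted by promoter, the lists held matches in 7 of 9 for zinc, 5 of 13 for metalloproteinases, 3 of 16 for WNT and 1 of 16 for smooth muscle. The Slc30a2 window follows the RefSeq start, and in the annotation of the deposited tables that gene begins at 134343181, so both of its matches lie inside the gene there. A match is a run of letters and was not shown to be bound.

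Genes of the muscle wall were far lower in the knockout library. Of 20 smooth muscle contractile genes 18 were lower and none higher, with a median difference of -3.73. Calponin, Cnn1, stood at 1193 TPM in the wild-type and 31.7 in the knockout library, against 60.1 and 17.3 in the polyps and 514 to 682 at steady state and after DSS. Desmin, Des, read 1333 and 39.4 TPM, the myosin kinase Mylk 158 and 4.21, and the intermediate filament gene Synm 112 and 3.20. The wild-type library was the highest of all 8 for Cnn1, Des and Mylk, and the knockout library lay at the level of the polyps. Whether fewer muscle cells or less RNA per cell lay behind this cannot be told apart in bulk tissue, and the same holds for every cell type below.

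Genes of cells that sit in or on the wall followed those of the muscle. Among 16 enteric neuron genes 14 were lower, as for Prph, a neuronal intermediate filament, at 37.7 and 0.562 TPM, the transmitter Vip at 58.7 and 2.13, and the calcium-binding Calb2 at 25.8 and 0.168. The receptor Ret was the member furthest the other way, at 6.18 and 12.3 TPM. In enteric glia 6 of 8 genes were lower, including Gfap at 9.38 and 0.0887 and Sox10 at 6.45 and 0.0331. Fat cell genes were lower in 9 of 11 cases, with adipsin, Cfd, at 173 and 1.33 TPM and adiponectin, Adipoq, at 21.3 and 0.0486. Most genes of the muscle, nerve, glia and fat lists, though not all, were thus lower in the knockout library, where the list means lay near those of the polyps. The part of these genes in any other difference of the pair was not tested.

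Position genes showed a departure of the wild-type library. Hoxd10 to Hoxd13, which mark the most distal gut, stood at 0.438, 0.563, 0.197 and 1.91 TPM in the wild-type library and at 16.7, 45.0, 29.5 and 129.8 in knockout. The steady-state and DSS libraries held 157 to 183 TPM of Hoxd13, and the polyps 41.1 and 131 for wild type and knockout. For Hoxd10, Hoxd11 and Hoxd13 the wild-type non-polyp library was the lowest of the 8 and the wild-type polyp the next lowest. Hoxb13, the most distal gene of its cluster, was lower in wild type as well, at 71.0 and 199.9 TPM, against 296 to 384 at the earlier stages.

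In the Hoxa cluster the order of Hoxb13 and the posterior Hoxd genes was not repeated. Hoxa11 and Hoxa13 were lower in the knockout library, at 42.9 and 10.2 and at 43.0 and 13.8 TPM, and the polyps held 9.33 and 8.71 and 16.6 and 10.8, so those genes lay with the polyps. Of 18 anterior and middle Hox genes, 5 were lower in knockout and 1 higher, with Hoxb2 at 5.40 and 0.505, Hoxb5 at 9.28 and 1.87, Hoxa3 at 16.8 and 5.33 and Hoxd9 at 3.48 and 8.64. The wild-type library had the highest level of the 8 for Hoxa2, Hoxa3, Hoxa4, Hoxa5 and Hoxb5, which were singled out after their values were seen. The wild-type library was thus high in these selected genes and low in Hoxd10 to Hoxd13. Of the 18 anterior and middle Hox genes, 12 lay within 2-fold and 7 were higher in knockout at any size. A distal marker outside the Hox genes was not low in the wild-type library. The 1 gene kept of the distal colon epithelium list stood at 162 TPM there and 12.3 in the knockout library. The polyps held 26.2 and 11.6 TPM of it and the earlier stages 150 to 454.

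**Figure D3:**
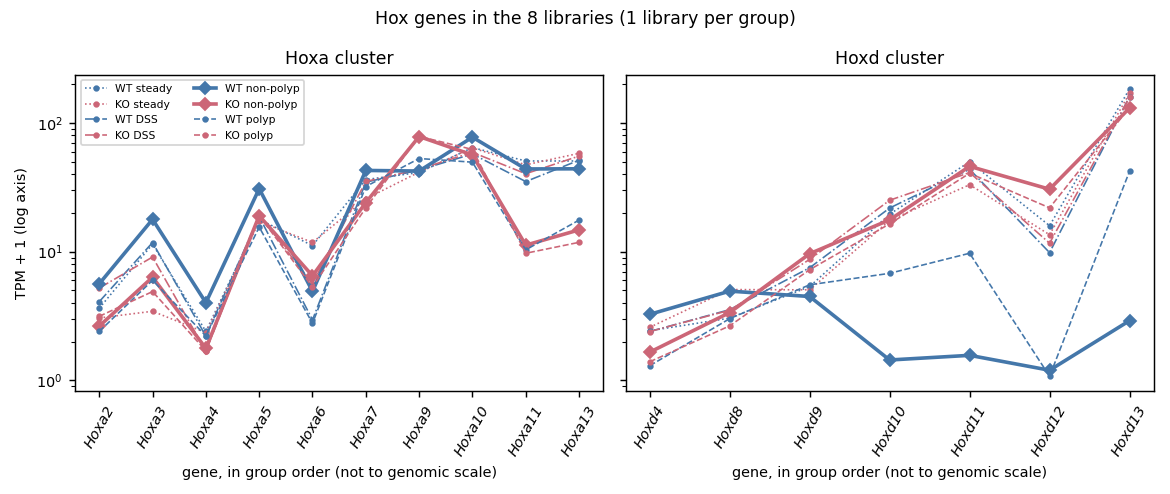
Levels of the Hoxa and Hoxd genes kept (horizontal axis, in group order) in each of the 8 libraries (vertical axis, TPM + 1 on a log axis), with blue lines for wild type, red lines for knockout and thick lines with diamonds for the non-polyp pair. The wild-type non-polyp library stays at or below 1.91 TPM from Hoxd10 to Hoxd13 while the knockout library follows the steady-state libraries there, and Hoxa11 and Hoxa13 are low in the knockout library and in both polyps.

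Genes of other gut regions also set the wild-type library apart. Fabp2, the fatty acid binding protein of absorptive cells of the small intestine, stood at 747 TPM for wild type against 13.2 for knockout, and at no more than 21.1 in any other library. Alpi, the intestinal alkaline phosphatase, read 12.5 and 0.743, against 0.480 to 0.978 at the earlier stages. Sis, Apoa1, Apoa4 and Apoc3, which define small intestine enterocytes, were below 0.5 TPM in both libraries. Chymotrypsinogen, Ctrb1, a pancreatic enzyme, stood at 21.9 TPM in wild type and was listed at 0 in knockout. Of the squamous keratins, Krt14 read 2.99 and 92.6 TPM and Krt13 2.67 and 50.3, with 41.0 and 81.6 and 16.6 and 35.7 in the polyps, while the basal squamous markers Krt5 and Trp63 were below 1 TPM in both. Colon position, tissue type and genotype cannot be told apart in the pair for any of these genes.

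Genes of mature surface epithelium were mostly lower in the knockout library. Among 24 genes of ion and water transport 17 were lower in knockout and 1 higher. The water channel Aqp8 stood at 314 TPM in the wild-type and 12.7 in the knockout library, with 57.5 and 5.07 in the polyps and 356 to 718 at the earlier stages. The chloride exchanger Slc26a3 read 238 and 9.75, and the carbonic anhydrase Car4 312 and 15.8. The colonic proton pump Atp12a went the other way at 2.99 and 13.4, but both were far below the 91.3 to 320.5 TPM of the earlier stages.

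In lipid and conjugation metabolism 12 of 18 genes were lower and none higher, including the sulfotransferase Sult1a1 at 324 and 7.21 TPM and the cytochrome Cyp2c55 at 598 and 14.6. Generic epithelial genes such as Epcam (1665 and 1934 TPM) and Cldn7 (864 and 834) were within 2-fold. Cdx2, a transcription factor of intestinal identity singled out after its values were seen, read 236 and 28.8 TPM, against 51.4 to 83.7 at the earlier stages.

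Of 15 goblet cell genes 12 were lower in knockout and none higher. Zg16, a mucus lectin, stood at 11616 TPM for wild type against 943 for knockout, the kallikrein Klk1 at 2789.8 and 231, and Clca1, a mucus-processing protein, at 2014 and 223. Retnlb, a goblet cell product induced by bacteria and worms, read 772 and 25.7, with no other library above 28.9 TPM. For the mucin Muc2, named after its values were seen, the order was 2419 and 457 TPM, against 367 to 897 at the earlier stages, so the wild-type library was high and the knockout library was not low. Endocrine hormone genes were lower in 6 of 12 cases, with Gcg (glucagon and GLP-1) at 168 and 6.66 TPM and somatostatin, Sst, at 60.3 and 2.69. The serotonin enzyme Tph1 was within 2-fold at 8.81 and 16.1.

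Antimicrobial genes split. Pla2g2a, a secreted bactericidal phospholipase, stood at 631 TPM in the wild-type and 18377 in the knockout library, with 18173 and 19433 in the polyps. Mptx1 and Mptx2, pentraxins of the gut epithelium, read 281 and 2.30 and 126 and 1.89 TPM in the opposite order. Reg3b, a lectin that kills bacteria, read 260.3 and 4.84. Of 16 such genes 9 were higher and 4 lower. Among 6 tuft cell genes 2 were higher, Avil at 3.93 and 55.9 TPM and Alox5 at 1.73 and 10.7, and Ptgs1 was lower at 40.5 and 15.2, while the defining markers Pou2f3 and Trpm5 were below 1 TPM in both libraries.

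**Figure D4:**
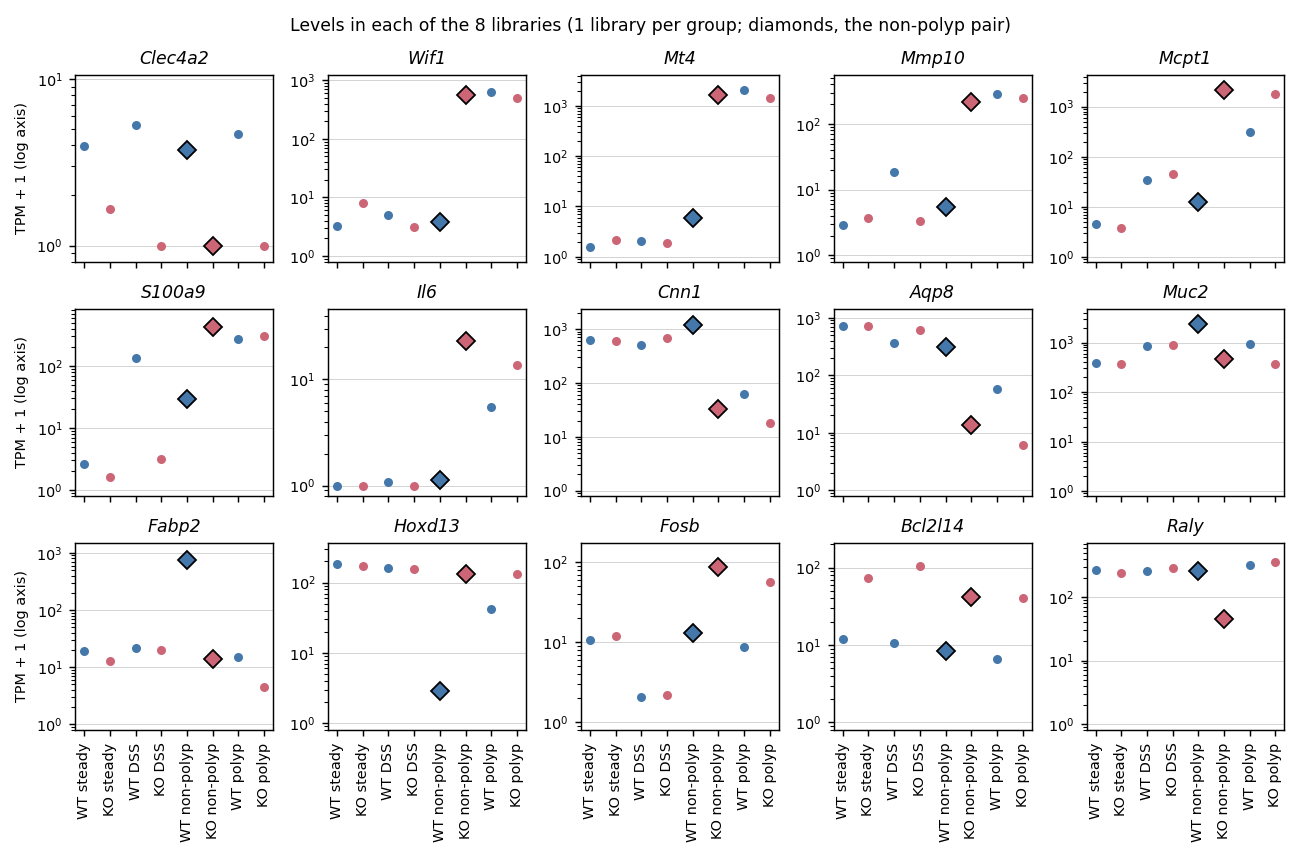
Levels of 15 genes in each of the 8 libraries (horizontal axis) as TPM + 1 on a log axis, with blue points for wild type, red for knockout and outlined diamonds for the non-polyp pair. In the panels of Wif1, Mt4, Mmp10, S100a9, Cnn1 and Aqp8 the knockout diamond lies with the polyps. For Mcpt1 and Il6 it lies nearer the knockout than the wild-type polyp and above both. In Fabp2, Hoxd13 and Muc2 the wild-type diamond stands apart, and in Raly the knockout diamond does, at 43.7 TPM against 237 to 359.7.

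Mast cell genes gave the largest list difference of the pair, with 12 of 13 higher and a median of 5.10, against 1.49 in the polyp pair. Mcpt1, a mucosal mast cell protease, stood at 11.5 TPM for wild type against 2191 for knockout. The polyps held 311 and 1776 TPM and the earlier stages 2.77 to 43.7. Mcpt2, a close paralog that may share reads with it, read 5.54 and 1133 TPM, chymase Cma1 0.367 and 94.2, and carboxypeptidase Cpa3 1.25 and 93.1. Both knockout day 112 libraries lay above both wild-type ones for each of these 4 genes. Kit, the stem cell factor receptor that mast cells share with the pacemaker cells of the muscle layer, was lower at 32.5 and 11.6.

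Of 11 neutrophil genes kept, 10 were higher and none lower. S100a9, a subunit of the neutrophil protein calprotectin, stood at 28.0 TPM in the wild-type and 421 in the knockout library and S100a8, its partner, at 15.6 and 208. The chemokine receptor Cxcr2 read 0.164 and 7.63. The polyps held 274 and 302 TPM of S100a9, so the knockout library was the highest of the 8. In macrophage and monocyte genes 7 of 18 were higher and 1 lower, led by arginase, Arg1, at 2.78 and 155 and osteopontin, Spp1, at 3.25 and 68.0. The general macrophage genes Adgre1, Cd68 and C1qa were within 2-fold.

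Cytokine genes of the IL-1, IL-6 and IL-10 families were higher in 9 of 10 cases. Il11, a stromal cytokine of the IL-6 family, stood at 0.872 TPM for wild type against 78.0 for knockout, Il6 at 0.124 and 22.2, and Il1b at 9.29 and 170.1. The polyps held 36.1 and 65.0, 4.54 and 12.7 and 82.9 and 133 for these, so the knockout library was the highest of the series for each of the 3. Il18, which mature epithelium expresses, read 83.4 and 83.4. Of 15 CC chemokines 6 were higher and 3 lower, with the monocyte attractants Ccl7 at 5.58 and 50.1 and Ccl2 at 4.65 and 39.3, and the epithelial Ccl28 at 55.6 and 10.7 in the other direction.

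For the pathway in the series title, the shared receptor chain of GM-CSF, IL-3 and IL-5, Csf2rb, stood at 2.82 TPM in the wild-type and 18.3 in the knockout library, with 9.79 and 19.0 in the polyps. The ligand-binding chain Csf2ra read 14.7 and 28.0, and the kinase Jak2 25.8 and 35.4. Among 15 receptor and target genes 8 were higher and 1 lower, the classical STAT5 targets Cish and Socs2 standing at 9.49 and 14.6 and at 24.8 and 8.85 TPM. Socs3, which STAT3 also induces, read 29.5 and 107, and the IL-6 family cytokine Osm 0.592 and 9.18. Csf2, Stat5a and Stat5b are among the genes left out. The polyp pair had a list median of 0.34 and the non-polyp pair 1.20, or 0.97 after rescaling.

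Of 12 T cell genes kept 6 were higher, the granule proteases Gzmb at 0.278 and 20.6 TPM and Gzma at 0.0989 and 8.23 leading, while Cd3e and Cd4 were within 2-fold. Of 18 B and plasma cell genes 3 were higher, namely Sdc1, Ighg2b and Ighg1, which is near the 14.7% of all genes that were. Sdc1 is also expressed by epithelium. No gene of the 10 of MHC class II or of the 12 GTPases and others induced by interferon-gamma reached 2-fold. In type I interferon genes 1 of 14 was higher, the deubiquitinase-like Usp18 at 11.5 and 30.1 TPM, and 3 were lower, Irf7, Isg15 and Oas2, with Isg15 at 106 and 44.9. Of 20 fibroblast and matrix genes 3 were higher and 3 lower, beside 14.7% and 9.94% of all genes. The proteoglycan Lum read 73.4 and 7.49 and the basement membrane collagen Col18a1 26.7 and 103. In endothelium the angiogenic receptor Kdr read 11.1 and 2.72, and Prox1, a lymphatic transcription factor that colon tumours also express, 1.71 and 98.8.

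**Figure D5:**
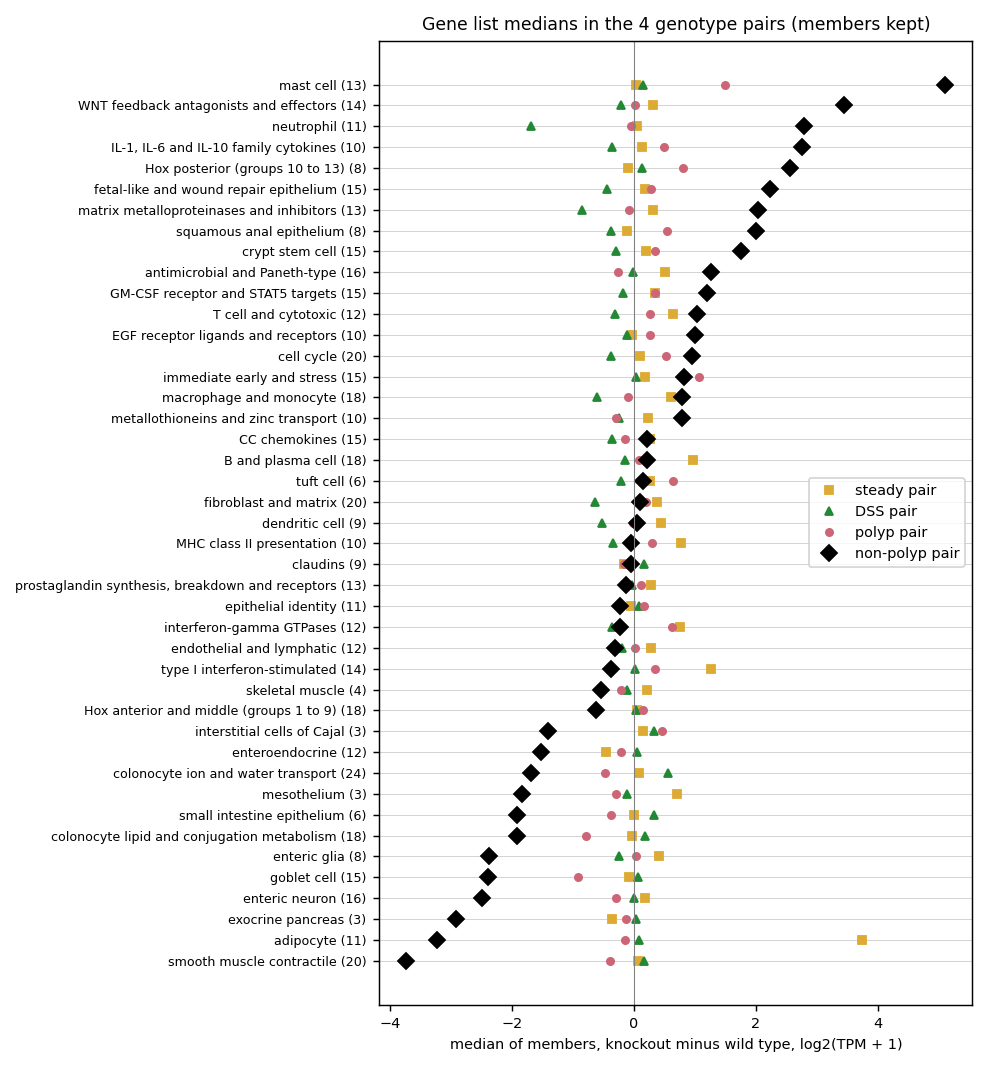
Median knockout minus wild-type difference (horizontal axis, log2(TPM + 1)) of each gene list plotted (vertical axis, number of members in brackets) in the 4 genotype pairs, each 1 library against 1. Lists with at least 3 members kept are plotted. Left out are housekeeping, DCIR-cluster lectin and accessory sex gland genes and the lists of genotype differences from an earlier account. The non-polyp medians (black diamonds) run from -3.73 for smooth muscle to 5.10 for mast cells, while the plotted medians of the other pairs stay between -1.69 and 1.49 except for 3.74 in adipocyte genes at steady state.

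Which library of the pair set a difference could be read against the range of the 4 steady-state and DSS libraries. Of the 2476 higher genes, 879 (35.5%) had the knockout library alone more than 2-fold above that range and 167 (6.74%) had the wild-type library alone more than 2-fold below it. Of the 1677 lower genes, 739 (44.1%) had the knockout library alone below the range and 109 (6.50%) the wild-type library alone above it. Both libraries lay within 2-fold of the range for 1387 (56.0%) and 781 (46.6%). Over all genes the departures from the earlier stages thus came mostly from the knockout library. Among the 611 remaining lower genes they did not, with 74 (12.1%) for the knockout library alone and 78 (12.8%) for the wild-type library alone. The wild-type library stood at least 2-fold above all 7 others in 123 genes and below all of them in 123. For the knockout library the counts were 21 and 16. These counts are bounded by the nearest other library, 1773 genes from the wild-type and 484 from the knockout library. They therefore do not show which library of the pair departs more.

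Of the genes on which the wild-type library alone stood apart, 6 are given here that were chosen by size after the values were seen. Dpep1, a membrane dipeptidase, stood at 195 TPM against 5.81 to 20.3 in the other 7 libraries, the mucin glycosyltransferase B3gnt6 at 27.9 against 0.324 to 1.16, and the sulfate transporter Slc13a1 at 15.0 against 0.0285 to 0.290. On the low side Ctse, an aspartic protease, stood at 4.03 TPM against 83.5 to 126, the kallikrein Klk15 at 1.44 against 46.2 to 103, and Fxyd4, a regulator of the sodium pump, at 0.00580 against 6.86 to 66.1. With Hoxd13 and Fabp2 these genes separate the wild-type library from the polyp, steady-state and DSS libraries alike. They count as knockout differences in the pair although the knockout library held ordinary levels.

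Where the knockout library alone stood apart, the genes were few. Raly, an RNA-binding protein, stood at 43.7 TPM against 237 to 359.7 in the other 7, Jam3, a junction protein, at 0.860 against 4.47 to 17.8, and Cdkal1, a tRNA-modifying enzyme, at 0.701 against 5.92 to 10.4. Tcf4, a transcription factor, was at 78.1 against 3.41 to 12.8, and Sdc1, a proteoglycan of epithelium and plasma cells, at 340.2 against 26.2 to 129. In none of these 5 did the knockout polyp differ 2-fold from the wild-type polyp.

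Among the 13534 genes outside the tumour, muscle and position classes, the leaders repeat these patterns. On the high side Gsdma, a gasdermin, stood at 0.559 TPM for wild type against 56.9 for knockout, Mettl7a3 at 0.0594 and 29.0, Tmprss13, a membrane serine protease, at 0 and 14.1, and Vtcn1, an inhibitory B7 family ligand, at 0.0379 and 12.6. For each of them the wild-type library was the lowest of the 8. Cma2, a chymase gene, at 0.141 and 18.6, and the immunoglobulin segment Ighv1-14, at 45.9 and 611, instead were high in the knockout library and had 0.717 and 11.9 and 31.3 and 338 TPM in the polyps. On the low side Aldh1a1, a retinaldehyde dehydrogenase, read 115 and 3.48, Aadac 32.5 and 0.197, Angptl7 63.5 and 1.54, and Nov, a matricellular protein, 305 and 16.7. In these 4 the wild-type library was the highest of the series.

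Because the knockout library resembled polyps, its differences from wild type were set beside the polyp pair, which shares no library with it. Of the 2476 higher genes 275 (11.1%) were also 2-fold higher in knockout polyps, where 3.67% of all genes were, and of the 1677 lower genes 188 (11.2%) were lower there, where 2.25% were. At steady state 128 (5.17%) of the higher genes repeated, where 3.59% of all genes were higher, and after DSS 66 (2.67%) did, where 1.86% were. Of the lower genes 34 (2.03%) repeated at steady state, beside 1.18%, and 60 (3.58%) after DSS, beside 2.80%. The opposite direction was more frequent in some of these sets. Of the higher genes 178 (7.19%) were lower in knockout after DSS, beside 2.80%, and 33 (1.33%) at steady state, beside 1.18%. Of the lower genes 73 (4.35%) were higher at steady state, beside 3.59%, and 57 (3.40%) after DSS, beside 1.86%. In polyps 44 (1.78%) of the higher and 31 (1.85%) of the lower genes went the opposite way. The wild-type polyp library lay 3194 genes from the wild-type non-polyp library and the knockout polyp library 4344. The part of unequal tumour content between the polyps in these repeats was not tested. Whether the day 112 knockout libraries share an animal was not tested either, so the repeat in polyps does not count as a replicate.

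Genes of the remaining class that repeated in polyps, chosen by size after the values were seen, included immunoglobulin segments Ighv1-14, Iglv3, Igkv14-100, Igkv6-14 and Igkv14-130. Fosb was also among the higher ones. It is an immediate early gene, of the transcription factors that cells switch on within minutes of a stimulus. Fosb stood at 12.2 TPM in the wild-type and 86.6 in the knockout library non-polyp and at 7.63 and 55.7 in the polyps. The immediate early list had 7 of 15 genes higher in the non-polyp pair, among them Fosl1 at 1.59 and 33.1 and Atf3 at 23.0 and 159.9, and medians of 0.81 there and 1.07 in the polyp pair. Fos, by contrast, read 338 and 252. The oestrogen receptor Esr1 read 0.177 and 12.7, with 2.18 and 14.8 in the polyps. Among the lower ones were Zg16 and Klk1, with polyp values of 4233 and 766 and of 1073 and 216, and Fkbp5, a target of the glucocorticoid receptor, at 110.2 and 13.5 with 53.2 and 12.0 in the polyps. The pair's own log2 differences for these were -3.62, -3.59 and -2.94, and the polyp pair's -2.47, -2.30 and -2.06.

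Few genes kept the direction of the non-polyp pair at every stage. In all 4 genotype pairs 6 genes were at least 2-fold higher in knockout and 5 lower, and leaving out the steady-state pair, whose knockout label is in doubt, gave 17 and 13. Bcl2l14, of the BCL2 family, stood at 7.37 and 40.6 TPM in the non-polyp pair, 11.0 and 73.1 at steady state, 9.69 and 104 after DSS and 5.67 and 39.4 in polyps. Psen2, a catalytic subunit of gamma-secretase, stood at 18.6 and 8.75 TPM in the non-polyp pair, and the other knockout libraries held between 5.30 and 7.21 TPM of it where no wild-type library held less than 18.6. The microRNA gene Mir6989 was higher and Clec4a2 lower in all 4 pairs. The others were RIKEN cDNA genes and predicted gene models, which the rule for naming passes over. Among the lower ones Gm13394, singled out after its values were seen, had the largest difference at 354 and 0.281 TPM, and Gm44958 and Gm18840 completed the 5. In every pair the knockout value of Bcl2l14 exceeded all 4 wild-type values.

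Some of these genes lie near the targeted locus. Chromosome 6, which carries Clec4a2 at 123106428 to 123143999 (GRCm38), held 5.76% of all genes kept. Without the steady-state pair it held 6 of the 17 genes higher in knockout and 6 of the 13 lower ones. Pianp, C1rb and C1s2, within 1.46 to 1.89 megabases of it, stood at 17.5 and 2.65, 5.31 and 0.168, and 3.20 and 0.391 TPM in the non-polyp pair, and Bcl2l14 lies 11.3 megabases away. Of the other higher ones Cd69 lies 6.16 megabases away, while Nat8f7 and the immunoglobulin segments Igkv6-14 and Igkv14-130 lie 37.4 to 55.3 megabases before the locus. Off that chromosome, Bcas2 read 61.6 and 265 TPM, Chchd2 550.2 and 154, and the lipocalin Apod 24.9 and 3.68. For the genes on chromosome 6, loss of DCIR and sequence that came with the targeted allele cannot be told apart here. The cause of the differences off that chromosome was not tested.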

How the data were processed

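Per the labels' protocols, libraries of total RNA were prepared with an NEBNext Ultra RNA kit. The authors deposited coverage (mean signal per base), FPKM and TPM per gene, per the file headers. StringTie and GRCm38 (mm10) are named in the submitters' processing notes; its version, the aligner and the use of strand are not given in the sources used, so paralogs and overlapping genes may share reads. Read counts were not given; aligned bases follow from the ratio of coverage to FPKM and set no interval on a value.

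Annotated rows were used and TPM was summed per gene ID, giving 54688 genes in all 8 libraries. The assembled rows of the deposited tables were read only for genes left out of the comparison. The 10 genes whose TPM left the library's median ratio to FPKM by over 0.1% were left out. Genes whose mean over the libraries reached 1 TPM were kept, and called at a log2(TPM + 1) difference of at least 1. Groups are the titles; with 1 library a side there is no test and no p-value. Named genes follow a rule, which passes over gene models called Gm or Rik: the 10 furthest in each direction, overall and outside the classes, up to 4 per gene list plus the member furthest the other way, and genes called in all 4 pairs. The members and the 49 gene lists were chosen with earlier results of these data known. The counting code was checked on simulated data. Pseudocount, filter, scaling, class rules and pairs were varied. Python 3.11.15, pandas 2.3.3, numpy 2.4.6 and matplotlib 3.10.9 were used.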

Additional observations from a re-analysis of the deposited data

Results flagged for a closer look

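Fat cell genes had a median knockout minus wild-type log2 difference of -3.23 in the non-polyp pair and 3.74 in the steady-state pair, the opposite direction. Neutrophil genes had a median of 2.78 in the non-polyp pair and -1.69 in the DSS pair. Neither difference between pairs was tested, each pair is 1 library against 1, and the knockout label of the steady-state pair is in doubt.

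A separate set of rows in the deposited tables, for loci assembled from the reads, held signal for chemokine and cytokine genes that were left out of the comparison. At loci that overlap the annotated genes completely, the knockout non-polyp library had 169.6 TPM for the neutrophil chemokine Cxcl1, 167.1 for Cxcl2, 20.4 for Cxcl3, 110.5 for Cxcl5 and 21.2 for Tnf. At the same loci the wild-type library had 3.84 TPM for Cxcl2, 0.169 for Cxcl3, 1.43 for Cxcl5 and 2.45 for Tnf. In the annotated rows the 2 libraries carry these same numbers the other way round, with 167.1 TPM of Cxcl2 under wild type and 3.84 under knockout, and those values leave the ratio of TPM to FPKM, except that of Cxcl3 under knockout. The cause was not tested. No direction is given for these 5 genes from the annotated rows.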

How the results depend on the processing

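No paired analysis was possible because each group holds 1 library, so no replicate block and no leave-one-out could be fitted. Of 276 list medians under 6 alternatives 254 stayed within 2-fold or stayed past it in the same direction, though 11 of those within 2-fold changed sign. With a mean TPM of at least 5 the medians of glia (0.36), mesothelium (0.78) and pancreas (0.18), past 2-fold before, reversed with fewer genes in each list, the anterior and middle Hox median (0.21) and the CC chemokine median (-0.05) changed sign within 2-fold, and called lower genes came to 1072, polyp-high genes called higher to 434, position genes lower to 6, remaining lower genes to 348, genes lower in every pair to 3 and higher genes with the knockout library alone above the earlier stages to 569. With no filter the posterior Hox median was 0.00, since genes listed at 0 entered. A pseudocount of 5 gave 1292 higher and 955 lower genes, 400 polyp-high genes higher, 368 polyp-low and 595 muscle genes lower, 7 position genes higher, 872 and 325 remaining genes, 2 and 2 genes in every pair, 535 with knockout alone above and 44 with wild type alone below the earlier stages. A pseudocount of 0.1 gave 24 and 9 genes in every pair and 301 with wild type alone below. Median-of-ratios rescaling gave 1061 higher and 952 lower remaining genes. FPKM gave 1040 remaining genes higher, 3 genes higher in every pair and 89 with wild type alone below. Muscle lists alone left 52 muscle genes lower. Without the steady-state pair 17 and 13 genes held in the other pairs. A difference of 0.5 in each pair, added after the data were seen, gave 48 and 16, and a range from steady state alone, also added, gave 343 with wild type alone below. Depth limits low values: a TPM of 0 is a listed value and carries no interval.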

Other observations

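Immunoglobulin variable segments, which differ between animals with their plasma cells, were compared across libraries as a description, with a choice made after the data were seen. Across the 189 segments kept, the knockout non-polyp library had a Pearson correlation of 0.955 with the knockout polyp and 25 segments (13.2%) at least 2-fold apart. Its correlation with the wild-type non-polyp library was 0.882, with 74 segments (39.2%) apart. The wild-type non-polyp library had a correlation of 0.956 with the wild-type polyp and 18 segments (9.52%) apart, although those libraries differed in 3194 genes overall. Segments are not independent points, and the libraries share a depth of about 3 gigabases. Igkv4-59 was the most abundant segment in both knockout day 112 libraries, at 744 TPM in non-polyp and 553 in polyp, while Igkv1-110 led in wild-type non-polyp at 366 TPM and Igkv1-117 in wild-type polyp at 417. In the non-polyp pair 65 of the 189 segments were higher in knockout and 9 lower, where 14.7% and 9.94% of all genes were. In both day 112 pairs 29 were higher and 5 lower, where 275 and 188 of all 16863 genes kept were. The segments summed to 5129 TPM in the wild-type and 9272 in the knockout non-polyp library, and the part of that total in these counts was not tested. Whether libraries of a genotype come from the same animal was not tested.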
